A study of Mus musculus with 16 samples.

Results

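Short small nucleolar RNAs, the size class of box C/D guide RNAs, were followed in primary mouse tracheal epithelial cultures. The members were the rows classed as small nucleolar RNA with a length of at most 110 bases, less 11 named rows of that size (Gm23969, Gm24134, Gm22879, Snord73a, Snord32a, Snord55, Snord37, Gm24489, Gm26224, Gm23212 and Gm25894). This left 129 of the 1269 small RNA rows measured. Another 139 small nucleolar RNA rows were longer. Member lengths ran from 60 bases (Gm22574) to 110 bases (Snord8 and Snord89), with a median of 76, and the nearest rows outside the limit were Snord67 and Snord90 at 111 bases.

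Box C/D small nucleolar RNAs assemble with the methyltransferase fibrillarin and the core proteins Nop56, Nop58 and Snu13. A stretch of the RNA upstream of a box D pairs with ribosomal or small nuclear RNA and directs methylation of 1 ribose there. Most are cut out of introns of host genes, many of which encode ribosomal proteins or noncoding transcripts, and a minority act in cleavage of the ribosomal RNA precursor. They serve ribosome production in every cell type, airway epithelium included.

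The cultures came from mice lacking p73 in the whole body (KO) and from wild-type mice (WT). p73, a relative of p53 that binds DNA, is needed for multiciliated airway cells. Cells were grown on membranes and exposed to air, upon which part of a basal layer becomes multiciliated, and RNA was taken at days 0, 4, 7 and 14. Each genotype and day had 2 libraries, described by the submitters as independent biological replicates and numbered 2 and 3 in the labels, which makes 16 libraries. The sources used here do not say whether a replicate stood for 1 animal or a pool. Small RNA libraries do not read the p73 messenger RNA, which leaves the knockout itself unchecked. Per the labels, total RNA was taken on a column and put through an RNA library kit.

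Reads recovered from the deposited values, summed over the rows with a value, came to 197497 to 1777259 in a library. Of these, 3576 to 18936 fell on the members. WT day 0 replicate 2 was the shallowest library and had 28 of 128 valued members at 0. Levels are given as normalised signal on 1 scale for all days. Of the markers of basal or stratified epithelium, miR-205-5p ran from 7448 to 21331, but miR-203-3p only from 5.21 to 30. The epithelial markers miR-200a-3p and miR-141-3p ran from 215 to 966 and from 235 to 1048. The sum of miR-449a-5p and miR-34c-5p, the 2 multiciliated markers, was 4775 to 4966 in KO against 6722 to 8962 in WT at day 14. At day 0 this sum was 973 to 1147 in KO against 895 to 1058 in WT. Of the 2, miR-34c-5p stood apart at day 14, at 1073 and 1184 in KO against 3859 and 3173 in WT. miR-449a-5p overlapped there, at 3893 and 3591 in KO against 5103 and 3549 in WT, and reached at most 27 at day 0. The part of these multiciliated markers in the results below was not tested. Fibroblast and muscle miR-143-3p reached at most 38.7 and had no value at day 14. In bulk cultures, fewer cells of a type and less RNA per cell cannot be told apart.

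Sequence was read for 119 of the 129 members from the GENCODE transcripts of mm10, on the strand of the gene. Box C was searched as TGATGA within the first 25 bases and box D as CTGA within the last 25, on the given strand only. Both were present in 76 members (63.9%), against 11 of 133 longer rows (8.27%). Shortening box C to TGATG gave 109 members (91.6%), and 118 of 119 held the box D letters. A further 6 members, Snord57, Snord85, Snord71, Snord93, Snord1b and Mir3096, had GGATGA in place of TGATG, a search added after reading the sequences. The end typical of the other class, ACA followed by 3 bases (ACANNN), closed 4 members (3.36%) and 89 longer rows (66.9%). The rule that chose the members did not use these letters. A match to these letters is a description of the sequence.

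The sequences below belong to the members on which the results turn, 5′ to 3′ in mm10 from the GENCODE annotation, with capitals for the box C and box D letters. Snord99, Snord104, Gm23246 and Snord45c are shown as members of high level, Gm25506, Snord57 and Snord21 as members that rose during culture, and Snord49a and Snord49b as a pair in 1 host gene whose KO and WT libraries stood apart at day 14.
Snord99, chr4:132310691-132310764 (+), in Snhg12: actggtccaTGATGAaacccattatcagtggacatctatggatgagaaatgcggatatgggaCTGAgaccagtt
Snord104, chr11:106500993-106501062 (+), outside same-strand host genes: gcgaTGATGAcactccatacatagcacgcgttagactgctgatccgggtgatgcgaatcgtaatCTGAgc
Gm23246, chr19:8725594-8725660 (+), in Snhg1: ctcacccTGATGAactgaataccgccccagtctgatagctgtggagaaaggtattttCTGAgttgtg
Snord45c, chr3:153912125-153912204 (-), in Rabggtb: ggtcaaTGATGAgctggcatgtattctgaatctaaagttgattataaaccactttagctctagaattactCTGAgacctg
Gm25506, chr8:85050207-85050276 (+), in Tnpo2: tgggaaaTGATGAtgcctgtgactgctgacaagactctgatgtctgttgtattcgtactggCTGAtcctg
Snord57, chr2:130278016-130278087 (+), in Nop56: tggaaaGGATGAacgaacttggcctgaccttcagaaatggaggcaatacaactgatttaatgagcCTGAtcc
Snord21, chr5:107904555-107904648 (+), in Rpl5: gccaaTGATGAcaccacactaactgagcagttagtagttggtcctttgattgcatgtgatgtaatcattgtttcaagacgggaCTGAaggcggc
Snord49a, chr11:62603450-62603521 (+), in 2410006H16Rik: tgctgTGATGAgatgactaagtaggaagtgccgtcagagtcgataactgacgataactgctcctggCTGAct
Snord49b, chr11:62603079-62603150 (+), in 2410006H16Rik: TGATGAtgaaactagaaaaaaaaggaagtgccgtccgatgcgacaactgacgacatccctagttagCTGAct
Gm26202, the member of highest level, and Gm24101, Snord11 and Snord85 are named without sequence.

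Snord49a and Snord49b share a run of 13 bases (aggaagtgccgtc), and Snord45c shares 20 bases with Gm24494 of the same host gene (cactttagctctagaattac). 12 pairs of members were at least 80% identical along their aligned length. The closest were Gm24920 with Gm25632 (98.8%), Mir3096 with Snord93 (98.6%), Snord14c with Snord14d (97.7%) and Snord88a with Snord88c (94.4%). How the authors' counting divided reads between such copies is not given in the sources used here, so their single levels are uncertain. Whether counting used strand is not given either.

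The annotation put 125 of 129 members inside a host gene on the same strand, over 69 host genes. Gas5 and Snhg1, both noncoding, held 6 members each, and 28 members lay in 15 genes whose names begin with Rpl or Rps, which encode ribosomal proteins. Of the 125, 56 lay in an intron of every transcript that spanned them, and 69 in an intron of some transcripts and an exon of others. The members with no such host were Snord104, Snord13, Scarna17 and Gm26492.

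The number of members with a value was 128 on day 0, then 117 (day 4), 69 (day 7) and 65 (day 14), with 62 valued throughout. Rows with low values were blank at days 7 and 14, so a missing value there does not tell whether a member was lost. The 67 members without a value on every day reached at most 51.8 at days 0 and 4 (Snord93), and the median of their maxima was 8.77. Among the 62, levels per 100 bases ran from 1447 for Gm26202, in an intron of Rpl17, to 16.3 for Gm26293, in Nop58, with a median of 57.2. Gm26202, Snord99 (1062, in the noncoding gene Snhg12), Snord104 (1013) and Snord49a (978) held 42.1% of the members' summed values. Next in level per 100 bases came Gm23246 (551), Snord45c (419), Snord12 (412), Snord66 (294), Snord57 (281) and Snord85 (259). As means over the 16 libraries, 44 of the 62 lay under 100.

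**Figure D1:**
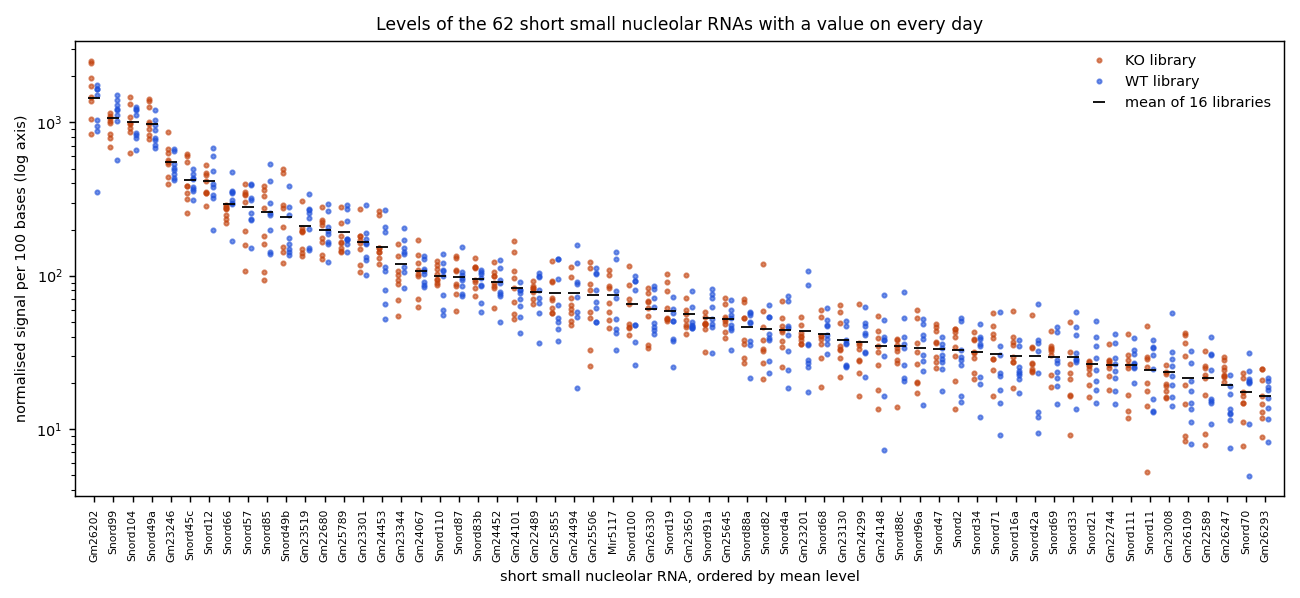
Normalised signal per 100 bases (log axis) of the 62 short small nucleolar RNAs with a value on every day, with KO libraries left and WT libraries right of each mean of the 16 libraries. Levels fall from 1447 for Gm26202 to 16.3 for Gm26293, and libraries of a genotype overlap those of the other in most members.

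Members of 1 host gene differed in normalised signal per 100 bases. These values do not tell whole RNAs from pieces of them, and miRNAs held 93.2% to 97% of the summed values by group. The part of such pieces in the differences was not tested. In the 16 host genes with at least 2 members valued on every day (41 members), the highest member exceeded the lowest by a median of 4.04 times. The range was 1.08 times in Rpl13a to 21 times in Snhg1. In Snhg1, Gm23246 stood at 551 per 100 bases and Gm22744 at 26.2. In Zfas1, Snord12 stood at 412 and Gm23201 at 43.4. In Nop56, which encodes a core protein of the C/D particle, Snord57 stood at 281, Snord110 at 99.3 and Gm23650 at 56.1. In Rpl17, Gm26202 exceeded Gm23301 (167), its 83.1% identical neighbour, by 8.66 times.

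The 4 most abundant members were read deeply, at 119 to 2462 reads in a library for Gm26202. Gm26202 held 1273 and 550.3 on day 0, then 893 and 683 (day 4), 959.7 and 1119 (day 7) and 1581 and 1627 (day 14) in KO. In WT it held 230.1 and 979 on day 0, then 568 and 679 (day 4), 617 and 1071 (day 7) and 1081 and 1138 (day 14), with 1 low library on day 0. At day 14 its KO libraries lay above its WT libraries (log2 0.53, SE 0.53, adjusted p = 0.597). Snord99, whose human counterpart guides 28S ribosomal RNA, held 509 and 619 on day 0, then 820.0 and 589.9 (day 4), 729 and 759 (day 7) and 787 and 855 (day 14) in KO. WT libraries held 826 and 900.2 on day 0, then 1031 and 754 (day 4), 421 and 894 (day 7) and 963 and 1114 (day 14). Its genotypes overlapped on days 4 and 7 and stood apart, WT higher, on days 0 and 14 (log2 -0.62 and -0.34, adjusted p = 0.625 and 0.597). Snord104, a 28S guide in human with no same-strand host gene here, held 641 and 443 on day 0, then 611 and 756 (day 4), 686 and 1019 (day 7) and 699 and 924 (day 14) in KO. The WT levels were 464 and 553 on day 0, then 582 and 594 (day 4), 888 and 848 (day 7) and 779.5 and 863 (day 14). Its libraries of both genotypes were interleaved on days 0, 7 and 14.

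**Figure D2:**
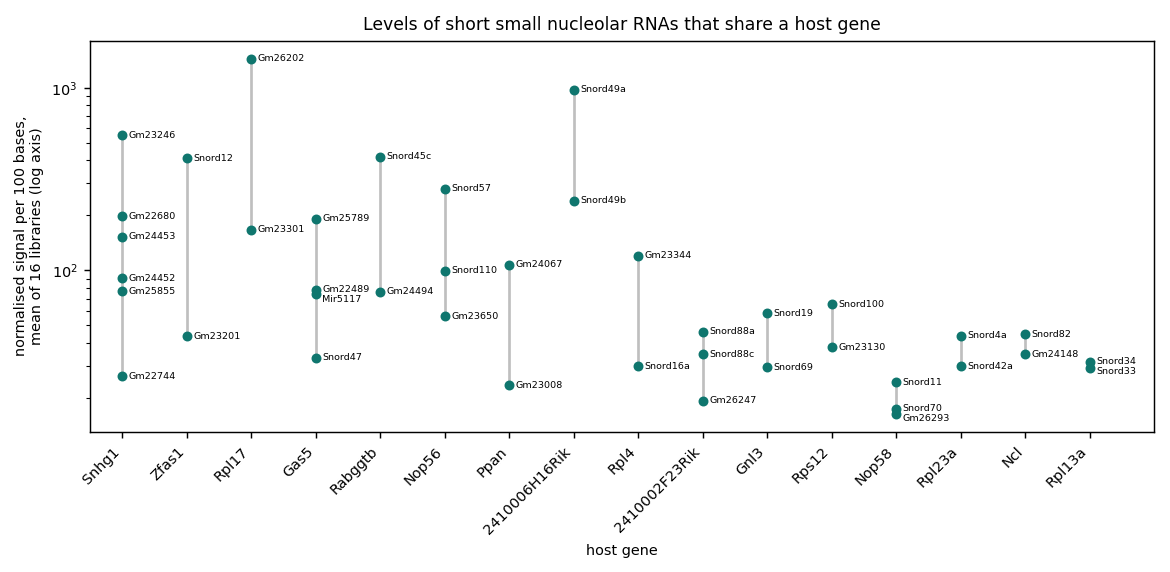
Normalised signal per 100 bases (log axis, mean of 16 libraries) of members that share a host gene, 1 column per host. The widest span is in Snhg1 (21 times) and the narrowest in Rpl13a (1.08 times).

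Members held 1.59% ± 0.00495 of the summed values in KO and 2.1% ± 0.32 in WT at day 0 (SD, n = 2 each, here and below). The shares were 1.61% ± 0.0661 in KO and 1.42% ± 0.344 in WT at day 4, and 1.32% ± 0.234 in KO and 1.04% ± 0.0434 in WT at day 7. They were 1.54% ± 0.168 in KO and 1.09% ± 0.0295 in WT at day 14. At day 14 both KO libraries lay above both WT libraries, and at day 0 both lay below. Rows classed as ribosomal RNA differed in the same direction at day 14, with 0.35% and 0.55% of values in KO against 0.15% and 0.13% in WT. So did the longer small nucleolar RNAs (0.297% and 0.373% against 0.198% and 0.167%) and small nuclear RNA rows (0.0307% and 0.0552% against 0.0154% and 0.0134%). Rows classed as piRNA overlapped (1.44% and 1.65% against 1.32% and 1.70%), and miRNA rows were lower in KO (96.3% and 95.6% against 97.1% and 96.8%). The part of these classes in the members' share was not tested. With miR-92b-3p out of the summed values, the shares were 3.04% in KO and 2.24% in WT at day 14, and 1.61% in KO and 2.15% in WT at day 0. On that measure WT no longer held a lower share at day 14 than at day 0. Shares of different days sum different rows, as 128 members had a value at day 0 and 65 at day 14. Over the 62 members, the highest group mean exceeded the lowest by a median of 2.23 times, from 1.5 times for Gm22489 to 4.37 times for Gm26109.

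Differences between KO and WT were tested with limma on log2 values, with Benjamini-Hochberg adjustment over all small RNAs tested and a threshold of 0.05. A member entered where at least 2 of the 4 libraries of a day reached 10, which can happen through 1 genotype alone. No member passed on day 0 (76 tested, 0% of all 342 rows called), day 4 (76, 0.294%), day 7 (69, 0.312%) or day 14 (65, 3.62%), nor on average over the days (59, 2.57%). Of the short rows left out by name, Snord73a was called higher in KO at day 4, where no other row was called, and at day 14. The number at an unadjusted p under 0.05 was 2, 1, 2, 7 and 3 in that order. Over all rows it was 27 of 342, 14 of 340, 16 of 321, 57 of 304 and 46 of 272. The members' median log2 was -0.20, 0.06, 0.13 and 0.08 on the 4 days in order, beside 0.07, 0.01, -0.02 and -0.01 over all rows.

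The smallest p at day 0 were those of Gm26492 (log2 -1.5, SE 0.59, adjusted p = 0.575), Gm25506 (log2 -0.75), Snord93 (1.02), Snord71 (1.22) and Snord68 (-0.78), all at that adjusted p. Gm26492 entered through WT alone, with 19.3 and 19.4 (10 and 14 reads) against 4.73 and 8.04 in KO (7 and 9 reads). Gm25506 held 22.9 and 17.9 in KO and 34.8 and 34.6 in WT, without overlap. At day 4 the smallest p were those of Snord93 (log2 1.41, SE 0.47, adjusted p = 0.708), then Gm23436, Snord42a, Gm26109 and Mir5117, with log2 -0.80 to 0.94 and an adjusted p of 0.998. Snord93 and Gm23436 entered there through KO alone, as the filter read the values before days were put on 1 scale. Snord93, whose human counterpart guides 18S ribosomal RNA, held 22.2 and 37.1 in KO and 9.16 and 11.3 in WT at day 4. The near copy Mir3096 limits what this level says of 1 locus. At day 7 the smallest p were those of Gm24101 (log2 0.97, SE 0.33, adjusted p = 0.438), Snord49a (log2 0.60), Gm26109 (1.03), Mir5117 (0.95) and Gm26247 (0.75), the last 4 at an adjusted p of 0.789.

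At day 14 the 5 members of smallest p were Gm24101, Snord49a, Gm23519, Gm26247 and Snord49b. Gm24101, in the noncoding gene 1110038B12Rik on chromosome 17 (34952240 to 34952309), held 100 and 118 in KO against 49.2 and 44.4 in WT (log2 1.20, SE 0.32, adjusted p = 0.0514). Every KO library exceeded every WT library there, as at day 7, where the values were 58.3 and 75 in KO and 29.5 and 37.5 in WT. At day 0 the order was the other way, with 47.2 and 36.6 in KO and 56.1 and 56.8 in WT.

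Snord49a and Snord49b are neighbours in introns of the noncoding gene 2410006H16Rik, and their human counterparts guide 28S ribosomal RNA. At day 14 Snord49b held 337 and 358 in KO against 202 and 103 in WT (log2 1.26, SE 0.49, adjusted p = 0.172). Snord49a held 906 and 1028 in KO against 643 and 514 in WT (log2 0.75, SE 0.28, adjusted p = 0.166). Both groups stood apart for both RNAs, but the gap between the WT libraries of Snord49b was wide. Gm23519, named Snord60 in GENCODE, was the member of lower level in KO, at 105 and 109 against 184 and 214 in WT (log2 -0.88, SE 0.33, adjusted p = 0.167). Gm26247, next to Snord88a and Snord88c in 2410002F23Rik, held 23.1 and 20.5 in KO and 12.3 and 6.83 in WT (log2 1.16, SE 0.44, adjusted p = 0.169), the WT value of replicate 3 resting on 4 reads.

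Of these members, Gm24101 lay near the threshold and the others lay further from it. Other fits called some of them at day 14, though none called Gm26247. With replicate numbers as a block within genotype, Gm24101 (adjusted p = 0.038) and Snord49b (0.0292) passed in limma, beside 8.22% of all rows. The quasi-likelihood test of edgeR on recovered reads called 5 of 65 members, Gm24101, Snord49b, Snord49a and Gm26202 higher and Gm23519 lower in KO, beside 17.8% of all rows. It used the 4 libraries of day 14 alone, whereas limma estimated the spread from all 16 libraries. The authors' deposited table gave an adjusted p under 0.05 for 2 members at day 14, Snord49b (log2 1.11, adjusted p = 0.0162) and Snord49a (0.72, adjusted p = 0.0461), beside 8.41% of all its rows with an adjusted p. The same table gave none of the members such a p on days 0, 4 and 7 (0%, 0% and 0.613% of its rows). Leaving out any of the 4 libraries left no call in limma. At day 14, the share of members called was below that of all rows with the block, with edgeR and in the authors' table.

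**Figure D3:**
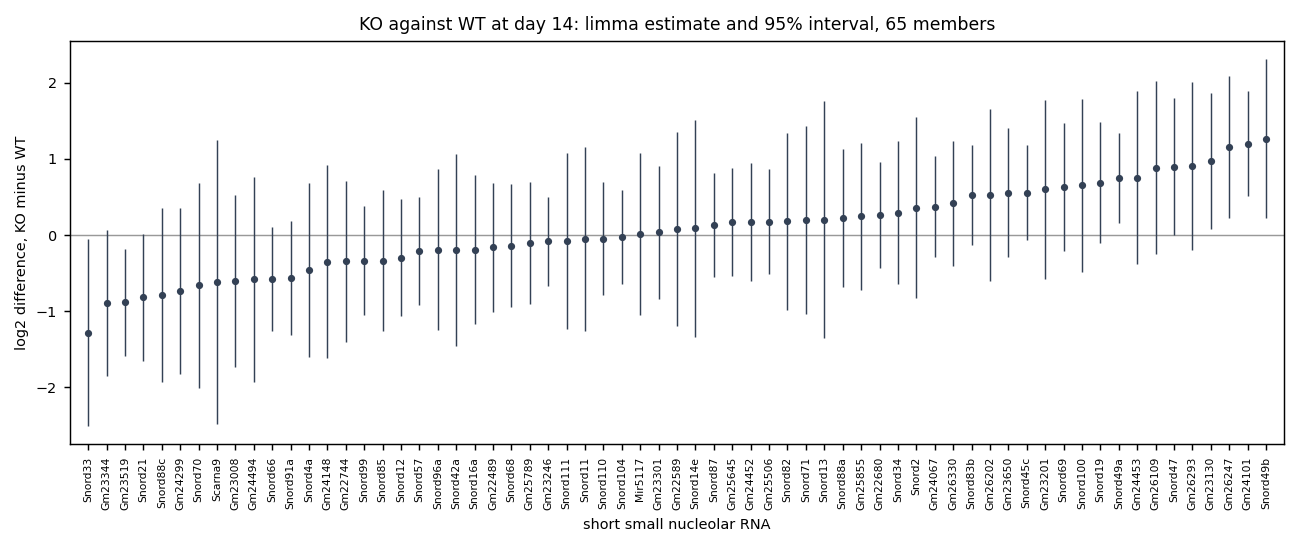
Log2 difference, KO minus WT, at day 14 for the 65 members tested, as the limma estimate with its 95% interval. The estimates run from -1.28 (Snord33) to 1.26 (Snord49b), and none passed the adjusted threshold.

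Averaged over the days, Gm26247 had the smallest p (log2 0.75, SE 0.22, adjusted p = 0.0973). It passed with the replicate block (adjusted p = 0.0471), beside 6.62% of all rows. Its KO libraries held 20.2 and 26.8 on day 0, then 22.2 and 25.5 (day 4), 18.3 and 19.8 (day 7) and 23.1 and 20.5 (day 14). The WT libraries held 17.4 and 15.2 on day 0, then 20.4 and 11.3 (day 4), 10.4 and 11.5 (day 7) and 12.3 and 6.83 (day 14). KO and WT libraries stood apart on every day. Snord19 (log2 0.46), Gm24101 (0.39), Gm23344 (-0.47) and Snord49a (0.27) followed, at adjusted p from 0.203 to 0.35.

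Change over days was tested within each genotype against day 0. At day 4 no member passed in KO (70 tested; 3.53% of all rows called) or in WT (70; 2.24%). The number at an unadjusted p under 0.05 was 5 in KO and 3 in WT, beside 55 and 45 of all 312 rows. The edgeR test also called none (0.962% and 1.6% of all rows). At day 7, 2 of 65 members rose in KO (8.75% of all rows called in either direction), Gm25506 (log2 1.5, SE 0.32, adjusted p = 0.00748) and Snord57 (log2 1.40, SE 0.33, adjusted p = 0.0123). In WT 1 of 65 rose, Snord69 (log2 1.36, SE 0.39, adjusted p = 0.0471; 8.42% of all rows called in either direction). Of all 297 rows, 11 were called higher in KO and 14 in WT. Snord69, in Gnl3, held 36.8 and 34.4 at day 7 and 11.6 and 15.2 at day 0 in WT. Its call was lost without any 1 of 4 libraries, and with library totals, TMM factors or edgeR. The KO calls were both lost without replicate 3 of day 0 or of day 7, and that of Snord57 also without replicate 2 of day 7 and with library totals (adjusted p = 0.064).

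At day 14, 10 of 61 members rose in KO (16.4%, beside 13.3% of all rows) and 1 fell (1.64%, beside 15.1%). In either direction 28.3% of all rows were called. The members' median log2 was 0.38, against 0.08 over all rows, -0.46 over miRNAs and 0.61 over the longer small nucleolar RNAs. In WT, 4 of 61 rose (6.56%, beside 8.6% of all rows) and none fell (7.53%), with 16.1% of all rows called in either direction. The WT median of the members was 0.11, against -0.06 over all rows. With the replicate block, 13 rose and 1 fell in KO, and 7 rose and 2 fell in WT, beside 36.6% and 22.9% of all rows called.

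Gm25506, Snord57 and Snord85 rose in both genotypes. With TMM factors the WT calls of Gm25506 (adjusted p = 0.0667) and Snord57 (0.0811) were lost, as was that of Snord21 (0.054). Gm25506 lies in Tnpo2, the gene of a nuclear import receptor. Its KO libraries held 22.9 and 17.9 on day 0, then 37.2 and 40.6 (day 4), 61.8 and 56.2 (day 7) and 78.2 and 86.3 (day 14). Its WT libraries held 34.8 and 34.6 on day 0, then 46.9 and 56.4 (day 4), 43 and 78.2 (day 7) and 73.3 and 71.8 (day 14). The KO values were higher at each later day and did not overlap day 0, and the WT day 14 libraries also lay above both day 0 libraries (log2 1.97, SE 0.32, adjusted p = 0.000424 in KO; log2 1.04, SE 0.32, adjusted p = 0.0385 in WT).

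Snord57, whose human counterpart guides 18S ribosomal RNA, held 114 and 77.7 on day 0, then 142 and 254 (day 4), 286 and 219 (day 7) and 246 and 243 (day 14) in KO. In WT it held 108 and 169 on day 0, then 185 and 167 (day 4), 231 and 225 (day 7) and 285 and 280.2 (day 14). Day 14 libraries lay above day 0 libraries in both (log2 1.37, SE 0.33, adjusted p = 0.00776 in KO; log2 1.06, SE 0.33, adjusted p = 0.0425 in WT). In the same host gene, Nop56, Snord110 had log2 0.01 in KO and -0.16 in WT, and Gm23650 0.39 and -0.42, none of them called.

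Snord85 held 118 and 68.8 on day 0, then 243 and 77.7 (day 4), 203 and 133 (day 7) and 265 and 282 (day 14) in KO and showed a wide gap between the day 4 libraries. The WT libraries held 104 and 101 on day 0, then 145 and 182 (day 4), 186 and 219 (day 7) and 305 and 391 (day 14). It rose in both (log2 1.59, SE 0.43, adjusted p = 0.0138 in KO; log2 1.74, SE 0.43, adjusted p = 0.0148 in WT). Snord21, in Rpl5, rose in WT (log2 1.32, SE 0.39, adjusted p = 0.0369), with 37.3 and 47.8 at day 14 and 19.3 and 13.8 at day 0. In KO it had 23.1 and 24 at day 14 and 18.2 and 15.2 at day 0 (log2 0.48, adjusted p = 0.386).

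The other 7 rises in KO were Snord11 (log2 1.85, SE 0.57, adjusted p = 0.0273), Snord49b (1.47, adjusted p = 0.0379), Gm24101 (1.37, 0.00634), Gm26330 (1.19, 0.0319), Gm24067 (1.11, 0.0141), Snord45c (1.11, 0.0119) and Snord87 (0.98, 0.0305). Snord49b held 337 and 358 at day 14 and 103 and 150.1 at day 0 in KO. In WT it held 202 and 103 at day 14 and 276 and 127 at day 0, which overlapped. Snord45c held 501 and 482 at day 14 and 204 and 254 at day 0 in KO, and its relative in Rabggtb, Gm24494, had log2 -0.55 (adjusted p = 0.548). Snord11 rested on few reads, 18 and 5 at day 0 in KO. Gm23246, in Snhg1, fell in KO (log2 -0.86, SE 0.27, adjusted p = 0.0291), with 295 and 265 at day 14 and 577 and 450.2 at day 0. In WT it held 282 and 309 and 336 and 449 on those days (log2 -0.39, adjusted p = 0.362).

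Within Snhg1 the log2 difference, day 14 minus day 0, ran from -0.86 (Gm23246) to 0.22 (Gm24452) in KO and from -1.38 (Gm24453) to 0.64 (Gm24452) in WT over its 6 members. Gm24453 passed in WT with the replicate block (adjusted p = 0.0329, against 0.0959 without it), as did Gm23201 of Zfas1 (log2 -1.29, 0.0325 against 0.124). In Gas5 the difference ran from -0.89 (Mir5117) to 0.26 (Gm25789) in KO and from -0.62 (Snord47) to 0.11 (Gm22489) in WT over 4 members, none called. In Rpl17, Gm26202 had log2 0.94 in KO and 1.22 in WT (adjusted p = 0.212 and 0.13; 0.0485 in WT with the block), and Gm23301 had 0.35 in KO and -0.35 in WT. In Ncl, the nucleolin gene, Gm24148 had 1.57 in KO and 1.76 in WT (adjusted p = 0.0615 and 0.06), and passed in both with the replicate block. Gm24148 rested on few reads at day 0 in WT, 3 and 23. Its neighbour Snord82 had 0.85 in KO and 0.18 in WT. In Rps12, Gm23130 had 1.15 in KO (adjusted p = 0.0512; 0.0472 with the block) and -0.42 in WT, and Snord100 had 0.97 in KO and 0.15 in WT.

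**Figure D4:**
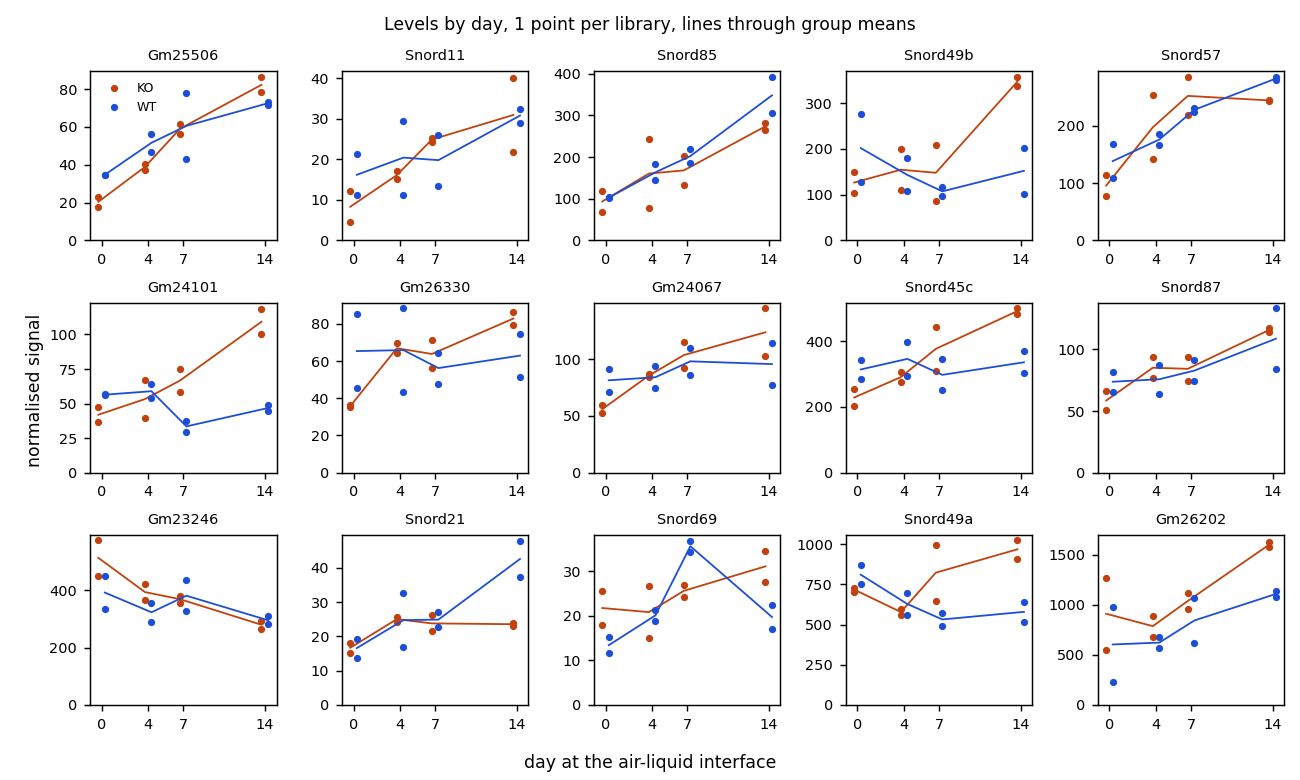
Normalised signal by day (linear axes from 0, 1 point per library, lines through the means of 2 libraries) for the 13 members called against day 0 at day 7 or 14, and for Snord49a and Gm26202. Gm25506 and Snord57 stand above their day 0 values at day 14 in both genotypes, and Snord49b and Gm24101 stand higher in KO than in WT at day 14.

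Part of these calls was lost when 1 library was left out or the scale was changed. Leaving out 1 library leaves 1 in its group, so a lost call does not show that the library carried it. Without KO day 14 replicate 3, only Gm25506 of the 11 KO calls was kept. Without KO day 0 replicate 3, Gm25506 and Snord45c were kept, without replicate 2 of day 14 5 calls, and without replicate 2 of day 0 6 calls. In WT none of the 4 was kept without either day 14 library, and 2 of 4 were kept without either day 0 library. Scaling to library totals moved the median of all rows at day 14 to -0.35 in KO and -1.08 in WT, on which scale 4 members rose and 2 fell in KO, and 24 fell and none rose in WT (34.1% and 48.7% of all rows called). On that scale, Gm25506, Snord57, Snord85, Gm24101 and Gm23246 kept their KO calls. The WT values of Gm25506 and Snord57 became log2 0.02 and 0.02, without a change of sign.

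**Figure D5:**
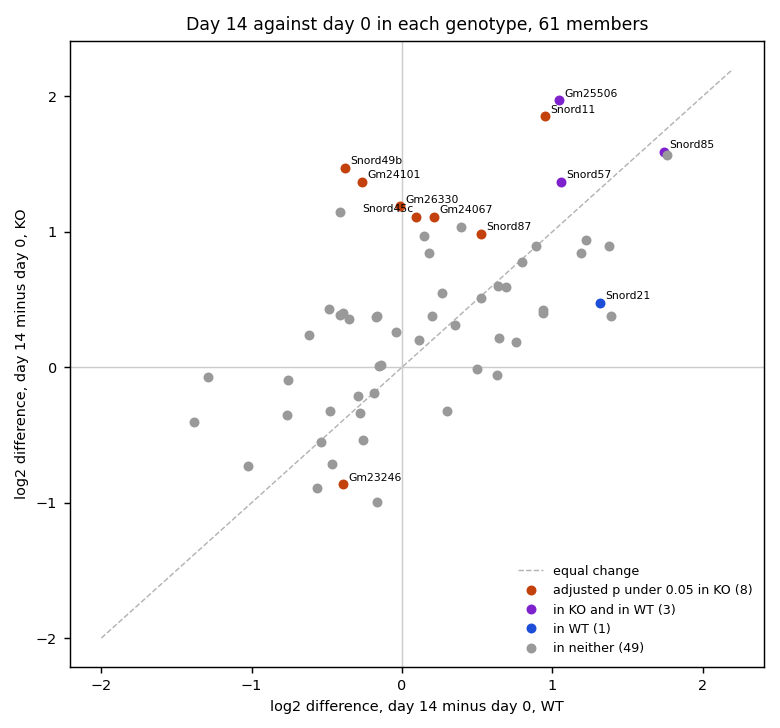
Log2 difference, day 14 minus day 0, in KO (vertical axis) and in WT (horizontal axis) for the 61 members tested, coloured by the genotype in which the adjusted p was under 0.05. Gm25506, Snord57 and Snord85 were called in both, 8 members in KO and Snord21 in WT.

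A call in 1 genotype does not show a difference between them, so the interaction of genotype and day 14 was tested. No member passed (61 tested, 0% of all rows called), 6 had an unadjusted p under 0.05 (beside 52 of all 279 rows), and edgeR also called none (0%). The smallest p were those of Gm24101 (log2 1.63, SE 0.45, adjusted p = 0.116), Snord49b (log2 1.85, SE 0.69, adjusted p = 0.214), Gm23130 (log2 1.56), Snord45c (1.01) and Snord49a (0.92). With the replicate block, Gm24101 (adjusted p = 0.0495) and Snord49b (0.0255) passed, beside 5.02% of all rows.

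The members were also grouped by the target known for the human RNA of the same name. The lists were drawn up from general knowledge, without a source among the files, and are incomplete: Snord21, which rose in WT, was on none of them. Of 22 members on the 18S list, 12 were tested at day 14. Of these, 3 rose in KO against day 0 (Snord11, Snord45c and Snord57) and 1 in WT (Snord57), beside rises in 13.3% of all rows in KO and 8.6% in WT, with median log2 0.61 in KO and 0.27 in WT. Of 20 members on the 28S list, 13 were tested, 2 rose in KO (Snord49b and Snord87) and none in WT, with medians of 0.43 in KO and -0.17 in WT. The extremes were Snord11 (1.85) and Snord33 (-0.99) of the 18S list in KO, and Snord49b (1.47) and Gm23519 (-0.54) of the 28S list. The medians over all rows were 0.08 in KO and -0.06 in WT.

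Snord71 and Snord96a, whose human counterparts guide 5.8S ribosomal RNA, were not called at day 14 against day 0 (log2 0.37 and 0.89 in KO; 1.39 and 1.38 in WT, adjusted p = 0.119 and 0.0769). Snord96a passed in WT with the replicate block (0.0387). Both rested on few reads at day 0 in WT, 4 and 9 for Snord71 and 6 and 14 for Snord96a. Snord68, which in human guides both 18S and 28S, had log2 1.03 in KO (adjusted p = 0.0512; 0.0452 with the block) and 0.40 in WT. Snord13 and Snord14e, of the processing group, had log2 0.02 and 0.31 in KO, and -0.14 and 0.35 in WT. Snord83b, with no known ribosomal target, held 106 and 85.5 in KO and 79.9 and 54.7 in WT at day 14 (log2 0.52, adjusted p = 0.362). Snord7 and Snord8, guides of U6 small nuclear RNA, had no value at days 7 and 14 and at most 2.3 and 10.2 before. No member of the target lists was called between KO and WT in the limma test as first described. At day 14 the block called Snord49b of the 28S list, library totals called Snord49a, and edgeR called both and Gm23519 of that list. The authors' table also gave Snord49a and Snord49b an adjusted p under 0.05.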

How the data were processed

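Per the labels, small RNA of 16 libraries (2 genotypes, 4 days, 2 libraries each) was sequenced. Of tools and builds, the submitters' processing notes list DESeq2, with no version, and mm10. The aligner, its annotation and the counting rule are not given here. The deposited values are a normalised signal, reads divided by 1 factor per library within a day, whatever the file headers call them. A step worth 1 read was sought in each library, and dividing by it gave back whole reads (tolerance 0.0055): 97.3% to 100% of low values came out whole, less surely at days 7 and 14, whose low rows are blank. Per the file headers, the authors also deposited log2 fold changes of KO over WT on each day with an adjusted p-value.

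Days were joined by 1 log2 shift per day (0.191, 0.191, -0.388 and -0.0516 in day order), from the 272 rows that passed the filter throughout. 5 predicted rows with the values of a named miRNA were left out. The main test was limma 3.58.1 in R 4.3.3 on log2(value + 1) with a variance trend, 1 fit of 8 groups and 16 libraries, a filter of 10 or more in 2 of 4 libraries on every day compared, and Benjamini-Hochberg adjustment over all rows tested (threshold 0.05). Fold changes on this scale understate change at low values. Alternatives were a pseudocount of 10, no filter, library totals, TMM factors, replicate blocks, edgeR 4.0.16 on recovered reads, and leaving out each library. The edgeR fits used only the libraries of the days compared. The test was tried on simulated data.

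Same-numbered libraries were checked for pairing over the 272 rows: the differences between replicates correlated at 0.3 to 0.464 within KO and 0.107 to 0.274 within WT (6 pairs of days each), and at -0.245 to 0.174 between genotypes, so a block within genotype is given where it changes a call or a count. Recovered reads over all rows with a value came to 197497 to 1777259 in a library, which is not the sequenced depth. Amplified reads carry no molecular identifiers here, and counting error alone is too small a measure of their spread.

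The members and target lists were chosen with earlier results of these data known. Members named are those past the threshold, at most 10 in each direction, the 5 of smallest p where fewer than 3 passed, the 10 of highest level per 100 bases, the tested members of the processing, 5.8S and U6 lists, and the extremes of the other lists. Others named for sequence, copies or host genes were chosen after their values were seen. Host genes and sequences came from GENCODE on mm10, positions counted from 1.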

Additional observations from a re-analysis of the deposited data

How the results depend on the processing

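Counts of members called are given here under each alternative in limma unless named otherwise. In place of 0, KO against WT at day 14 gave 1 with a pseudocount of 10 or TMM factors. It gave 2 with library totals, 2 with the replicate block and 5 with edgeR. Of all 304 rows, the pseudocount called 7 higher and 7 lower, TMM factors 7 and 6, and library totals 18 and 4. The block called 8.22% of them and edgeR 17.8%. KO against WT averaged over days gave 1 with the replicate block, beside 6.62% of all rows. The interaction gave 4 with library totals, beside 14 of all 279 rows higher and 0 lower. It gave 2 with the block, beside 5.02% of all rows. KO day 7 against day 0 gave 3 with library totals, in place of 2. Gm25506 was kept, Snord57 lost, and Gm22680 and Gm23246 added as falls. Of all 297 rows, 8 were called higher and 47 lower there. KO day 14 against day 0 gave 6 with library totals (beside 34.1% of all rows), in place of 11, of which 5 were among the 11. WT day 7 against day 0 gave 27 with library totals and 0 with TMM factors or edgeR, in place of 1. Of all 297 rows, library totals called 5 higher and 109 lower, TMM factors 10 and 15, and edgeR 10 and 7. WT day 14 against day 0 gave 24 with library totals, 1 with TMM factors and 9 with the block, in place of 4. Library totals called 48.7% of all rows there and the block 22.9%. TMM factors called 17 of all 279 rows higher and 23 lower. The cause was not tested. The block changed no other count by over 1.5 times. Leaving out 1 library gave 0 to 1 call in KO at day 4, 0 to 3 at day 7 and 1 to 6 at day 14, and in WT 0 to 2 at day 4, 0 to 2 at day 7 and 0 to 7 at day 14. The KO against WT counts and the interaction stayed at 0 (0 to 0).

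With miR-92b-3p out of the denominator, the members' share was 1.61% in KO and 2.15% in WT at day 0, 2.08% in KO and 1.98% in WT at day 4, 2.18% in KO and 1.76% in WT at day 7, and 3.04% in KO and 2.24% in WT at day 14. With TGATG as box C, 91.6% of members held both boxes. For named members, 637 values kept their direction and side of the threshold, 25 gained and 68 lost a call, and none changed sign with a call. Each group held 2 libraries, and WT day 0 replicate 2 was the shallowest.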
